A study of Mus musculus with 6 samples.

Results

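The mitochondrial carrier family (SLC25) was examined in neuro2a (N2a) cells, a mouse neuroblastoma line, after knockdown of the transcription factor NF-Y. All genes with a symbol beginning with Slc25a, together with Ucp1, Ucp2 and Ucp3, were taken as members, whatever their signal. This gave 51 genes in the RefSeq gene table, of which 50 had a probe on the array and 46 could be tested, among 16490 genes tested in all. The remaining member, Slc25a5-ps, is a pseudogene to which no probe was matched.

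RNA was measured on 3 arrays of cells transfected with a control vector, labelled "Vector" and here called control. Another 3 arrays were of cells transfected with RNAi constructs that target NF-YA together with NF-YC, labelled "YAYC" and here called knockdown. The methods list both an empty and a non-targeting RNAi vector as controls, and which of them these arrays had is not stated. If it was empty, an effect of expressing any RNAi construct cannot be told apart from that of the knockdown. NF-Y is a trimer of NF-YA, NF-YB and NF-YC that binds the CCAAT box in promoters. Both groups were the same cell line and received a vector by lipofection. No sorting of transfected cells is described in the methods, so each array reads all cells of a dish, and fewer cells of a kind and less RNA per cell cannot be told apart. Nothing states that replicates came from separate cultures, and the p-values then measure only the spread between these samples.

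SLC25 proteins are nuclear-encoded carriers, nearly all of which sit in the inner mitochondrial membrane and exchange metabolites, nucleotides, phosphate, amino acids and cofactors between the cytosol and the matrix. They are made in the cytosol without a cleaved presequence as a rule, are received by the TOM70 receptor and are inserted by the TIM22 complex. The citrate carrier Slc25a1 is known for supplying cytosolic citrate, from which ATP-citrate lyase makes the acetyl-CoA used for fatty acid and sterol synthesis.

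Signal is given as log2 of the processed signal minus the 75th percentile of the same array, so that 0 is that percentile. Levels of different genes come from different probes and are not compared. A gene passed at a Benjamini-Hochberg adjusted p below 0.05 in limma, and it was called when its fold change was also above 1.5. The targeted genes were both called lower, Nfya by 0.76 and Nfyc by 1.81 on the log2 scale. Nfyb, the subunit that was not targeted, was called higher, with a change of 0.83 (adjusted p 0.00131). All 10 markers of neuroblastoma and sympathetic cells gave signal well above background on every array, and their summed level relative to the 75th percentile was 279 to 286 in control and 258 to 265 in knockdown. The summed level of the fibroblast markers was 0.222 to 0.26 in control and 0.253 to 0.289 in knockdown, where Pdgfra was called higher (1.29) and Col1a1 called lower (-0.77), and Dcn, Lum and Col1a2 changed by -0.30, -0.48 and -0.10 without passing. That of the macrophage markers, nearly all from Itgam and Csf1r, was 8.28 to 9.77 and 8.23 to 9.68. The astrocyte markers summed to 0.183 to 0.207 in control and 0.151 to 0.168 in knockdown, and those of brown fat to 0.04 to 0.0482 and 0.0396 to 0.0523. The part of these shifts in the results below was not tested.

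Of the 46 SLC25 genes tested, 3 were called lower in the knockdown, which is 6.52% of them, and 0 were called higher. The corresponding shares of all genes were 5.00% and 3.91%, or 8.90% in either direction. At any fold change 12 members passed lower and 7 passed higher, against 15.8% and 15.7% of all genes, so that 41.3% of the family passed in either direction against 31.5% of all genes. The 3 knockdown arrays did not overlap with the 3 control arrays for 31 members, or 67.4%, where 54.7% of all genes had groups that did not overlap. Of these, 18 members lay below the controls and 13 above, against 27.1% and 27.7% of all genes. The 13 include Slc25a2, which had no array with signal well above background. All 19 members that passed were well above background on all 6 arrays, as were 41 of the 46 tested. With a filter on signal well above background, 20.4% of all genes passed lower and 20.3% passed higher. Under that filter further members, such as Slc25a11 and Slc25a4, passed lower too. The part of signal level in the share of the family was not tested. The median change of the family was -0.05 and that of all genes 0.0053, and the median size of the change was 0.23 and 0.20. Members that passed lay on both sides of 0.

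**Figure D1:**
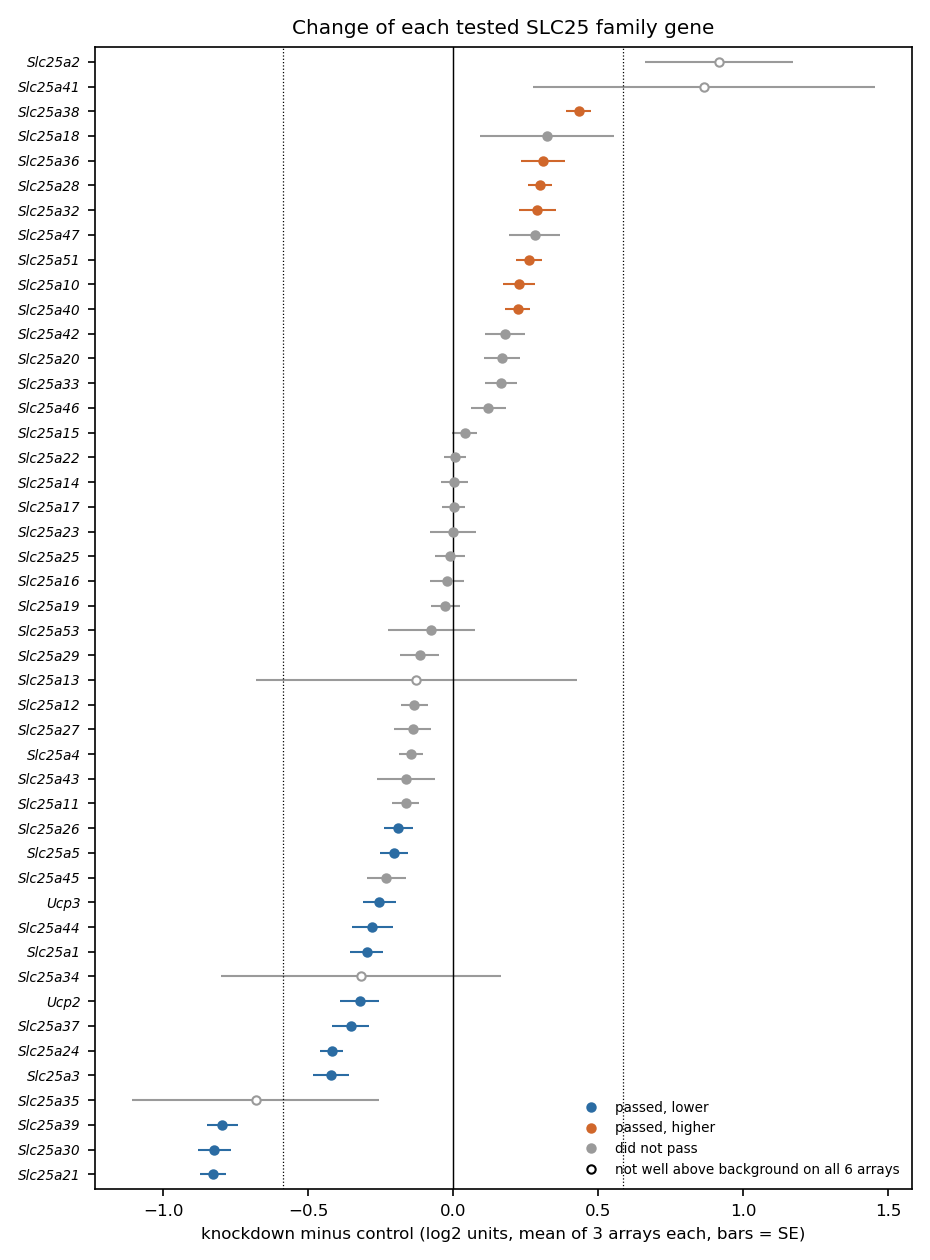
Change in normalized signal (knockdown minus control, log2 units, means of 3 arrays each, bars showing the SE of the limma fit) for the 46 SLC25 family genes tested, in order of the change. Slc25a21, Slc25a30 and Slc25a39 lie beyond the dotted line that marks a fold change of 1.5 on the lower side. Open circles mark the 5 genes not well above background on all 6 arrays, of which Slc25a35 also lies beyond the lower line and Slc25a2 and Slc25a41 beyond the upper one, and these 3 did not pass.

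The called carriers were Slc25a21, Slc25a39 and Slc25a30, each at 56.4% to 57.6% of the control level. Slc25a21, the carrier of 2-oxoadipate used in lysine and tryptophan breakdown, had a normalized signal of 2.26, 2.22 and 2.25 on the control arrays and 1.39, 1.39 and 1.47 on the knockdown arrays. The control arrays lay within a narrow band and every knockdown array lay far below it. The change was -0.83 with an SE of 0.045 and an adjusted p of 0.000652. Slc25a39, which is needed for glutathione import into the matrix, read 2.66, 2.62 and 2.56 in control and 1.89, 1.81 and 1.77 in knockdown. Again the highest knockdown array was well under the lowest control array. Its change was -0.80 (SE 0.055, adjusted p 0.00115). Slc25a30, a relative of the uncoupling proteins first described in kidney, read -1.41, -1.30 and -1.34 in control and -2.13, -2.25 and -2.13 in knockdown, a change of -0.82 (SE 0.057, adjusted p 0.00121). The groups were separated here as well. Under each of 18 alternative settings, all with the same fold threshold, these 3 genes were called lower. The slide row as a block is among the 18 here and below, and its change rests on knockdown replicate 1, so it is no further test.

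**Figure D2:**
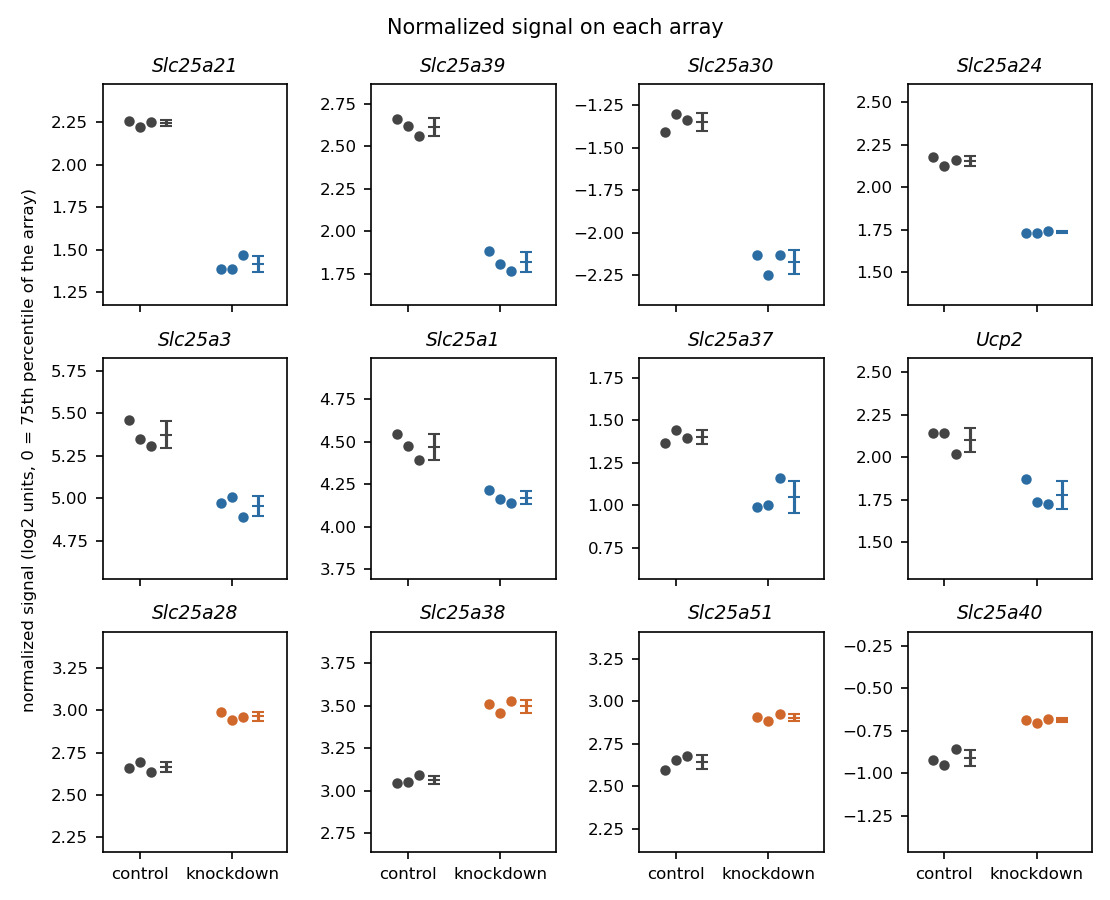
Normalized signal of 12 SLC25 family genes on each array (log2 units, 0 is the 75th percentile of the array), with the mean and SD of 3 arrays beside the points and the same axis span in each panel. Points of control and knockdown do not overlap in any panel, and the gap is widest for Slc25a21, Slc25a39 and Slc25a30.

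Because NF-Y binds CCAAT, the 250 bases before the transcription starts of the family were read from the RefSeq promoter table (assembly GRCm38.p6), which held 39 of the 51 members. The 6 windows below are those of the citrate carrier, of the 3 called carriers, of the mitoferrin Slc25a28, which passed in the opposite direction and has the most CCAAT boxes of the carriers that passed, and of Ucp2. Each is written 5′ to 3′ along the transcript and ends at the base before the start. Capitals mark CCAAT or its reverse complement ATTGG, and in Ucp2 a match to TCACNCCAC, a form of the sterol regulatory element.
Slc25a1, chr16:17928220-17928469, minus strand: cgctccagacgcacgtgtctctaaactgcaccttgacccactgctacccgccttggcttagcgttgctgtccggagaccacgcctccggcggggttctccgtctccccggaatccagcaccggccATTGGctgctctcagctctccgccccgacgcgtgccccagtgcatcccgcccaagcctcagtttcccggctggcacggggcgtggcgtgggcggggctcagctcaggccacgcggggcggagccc
Slc25a21, upstream start, chr12:57197473-57197722, minus strand: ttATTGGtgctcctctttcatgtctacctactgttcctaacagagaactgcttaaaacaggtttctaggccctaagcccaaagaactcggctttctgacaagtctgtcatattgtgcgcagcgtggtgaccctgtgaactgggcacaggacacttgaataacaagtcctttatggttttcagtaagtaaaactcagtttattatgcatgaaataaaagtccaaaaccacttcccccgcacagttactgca
Slc25a30, chr14:75787038-75787287, minus strand: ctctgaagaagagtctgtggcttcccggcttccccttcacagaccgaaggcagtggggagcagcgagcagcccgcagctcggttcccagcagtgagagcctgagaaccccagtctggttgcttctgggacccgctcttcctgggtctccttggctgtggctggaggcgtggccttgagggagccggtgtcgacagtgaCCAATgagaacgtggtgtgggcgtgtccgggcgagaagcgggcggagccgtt
Slc25a39, chr11:102407518-102407767, minus strand: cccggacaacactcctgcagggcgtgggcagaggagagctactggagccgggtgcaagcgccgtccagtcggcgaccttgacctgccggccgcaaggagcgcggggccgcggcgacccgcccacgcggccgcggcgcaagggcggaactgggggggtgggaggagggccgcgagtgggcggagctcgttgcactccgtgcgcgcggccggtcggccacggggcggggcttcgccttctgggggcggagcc
Slc25a28, chr19:43674882-43675131, minus strand: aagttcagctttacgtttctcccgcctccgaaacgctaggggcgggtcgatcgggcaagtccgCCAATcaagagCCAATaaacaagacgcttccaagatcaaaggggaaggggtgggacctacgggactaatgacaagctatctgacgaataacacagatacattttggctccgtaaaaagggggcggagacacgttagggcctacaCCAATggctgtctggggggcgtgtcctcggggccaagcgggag
Ucp2, chr7:100493108-100493357, plus strand: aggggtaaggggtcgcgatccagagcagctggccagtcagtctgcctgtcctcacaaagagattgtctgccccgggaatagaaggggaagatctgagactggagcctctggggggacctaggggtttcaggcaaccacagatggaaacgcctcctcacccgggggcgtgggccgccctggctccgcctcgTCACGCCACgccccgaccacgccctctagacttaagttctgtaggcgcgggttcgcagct
The box ended 121 bases before the start in Slc25a1, 48 bases before it in Slc25a30 and 244 bases before it at the upstream start of Slc25a21. A second start listed for Slc25a21 held none, and neither did the window of Slc25a39. Slc25a28, which rose, held CCAAT at 183, 172 and 39 bases.

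CCAAT on either strand lay in 33.8% of all 32851 promoter windows of this length. Counted by gene, it lay before 39.9% of the tested genes in the table, 53.5% of all genes called lower and 34.8% of those called higher. Within the family, 18 of 39 members in the table held it, where 37.5% of all genes in the table did. Among tested members it was 18 of 35, or 51.4%. By outcome it was present in 3 of the 9 members that passed lower, 2 of the 5 that passed higher and 13 of the 21 that did not pass. These counts were small and no test was made of them. TCACNCCAC, searched on both strands and sharing no letters with a CCAAT box in these windows, was found in 1.05% of all windows. Counted by gene, it lay before 1.22% of all genes in the table. Of the 39 members there, 2 held it (5.13%), Ucp2 and the glutamate carrier Slc25a18. A match in these letters is a description of the sequence and does not show binding.

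**Figure D3:**
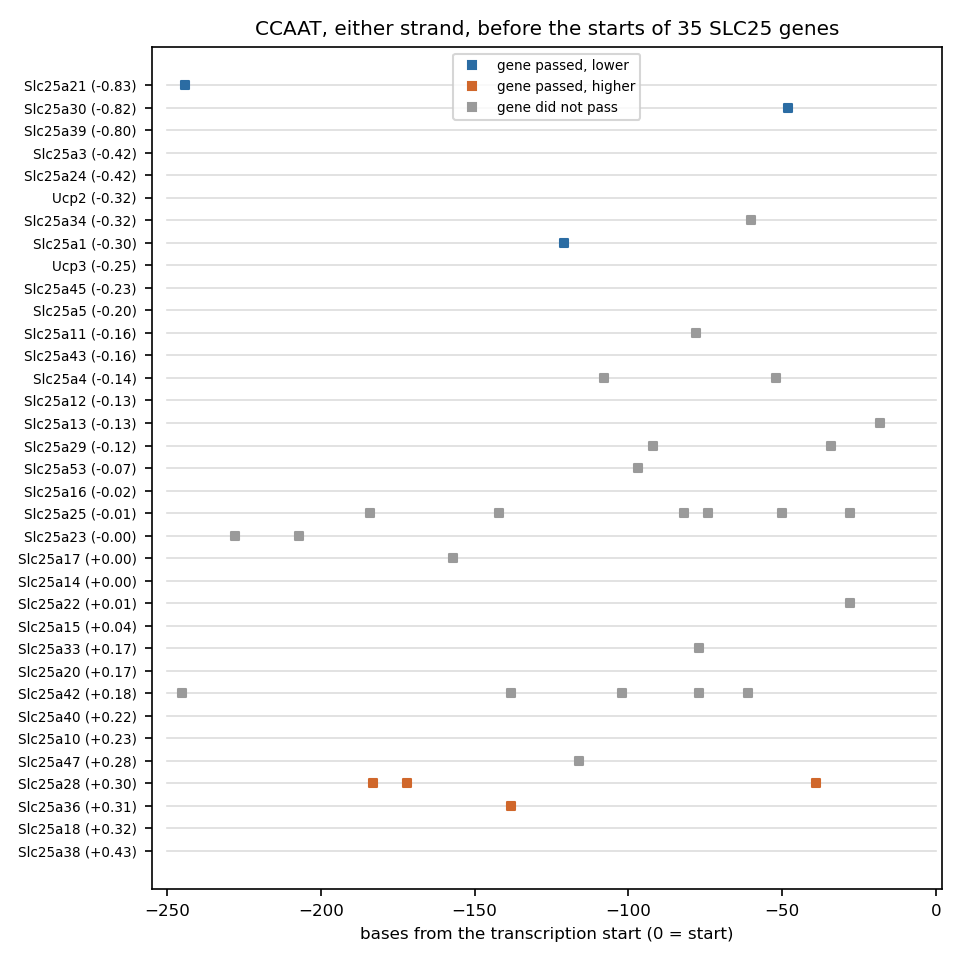
Position of CCAAT on either strand in the 250 bases before the transcription starts (x axis, bases from the start) for the 35 tested SLC25 family genes in the promoter table, ordered by their change (log2 units, in brackets), with starts of one gene overlaid. Squares are blue for genes that passed lower, orange for genes that passed higher and grey for genes that did not pass, and 3 of the 9 genes that passed lower carry a square.

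Carriers of di- and tricarboxylates, 4 genes in all, had 2 members that passed lower and 1 that passed higher, with a median change of -0.23. Over all genes 15.8% passed lower and 15.7% passed higher. Slc25a1, the citrate carrier, read 4.55, 4.47 and 4.39 in control and 4.21, 4.16 and 4.14 in knockdown. The groups did not overlap, but the gap between the lowest control and the highest knockdown array was close to the spread among the controls. Its change was -0.30 (SE 0.057, 95% confidence interval -0.44 to -0.15, adjusted p 0.0201), which left it at 81.3% of control and below the fold needed for a call. Slc25a1 passed in 12 of the 18 alternative settings, and its adjusted p ranged from 0.000556 to 0.155. Without control replicate 1, control replicate 2, or any 1 of the knockdown replicates it no longer passed, with an adjusted p of 0.0506 to 0.077, although its change stayed between -0.34 and -0.26 whichever array was left out. The dicarboxylate carrier Slc25a10, which exchanges malate or succinate for phosphate, passed higher with 0.23 (SE 0.055, adjusted p 0.0395). That pass held in 8 of the 18 alternative settings. Slc25a11, the 2-oxoglutarate carrier of the malate-aspartate shuttle, changed by -0.16 with an adjusted p of 0.0625.

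Enzymes that make, export or use citrate and acetyl-CoA were read beside the citrate carrier, from a list of 17 genes chosen with earlier results of these data known. Of the 17, 12 passed lower, 0 passed higher and 3 were called lower, against 15.8%, 15.7% and 5.00% of all genes. The median change was -0.36 against 0.0053 over all genes. Acss2, which makes acetyl-CoA from acetate, changed by -0.86 (SE 0.063, adjusted p 0.00132), and Acly, the ATP-citrate lyase that acts on exported citrate, by -0.66 (SE 0.051, adjusted p 0.00153). Dimmer probes of Acss2 and Acly changed by -0.515 and -0.511, and both passed without reaching the fold for a call. For Acly the control arrays read 6.87, 6.85 and 6.90 and the knockdown arrays 6.28, 6.15 and 6.22. The mitochondrial isocitrate dehydrogenase Idh2 changed by -0.60 (adjusted p 0.00189), while citrate synthase, Cs, changed by -0.37, the cytosolic malate dehydrogenase Mdh1 by -0.36 and malonyl-CoA decarboxylase, Mlycd, by -0.41. These last 3 passed without reaching the fold for a call. The calls of Acly and Idh2 depended on the setting, since with normexp background correction and quantile normalization their changes were -0.58 and -0.48. In the malate-aspartate shuttle, Mdh1 was the 1 of 4 enzymes that passed, and the changes of the others were 0.15 for Got2, 0.10 for Got1 and 0.0084 for Mdh2.

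**Figure D4:**
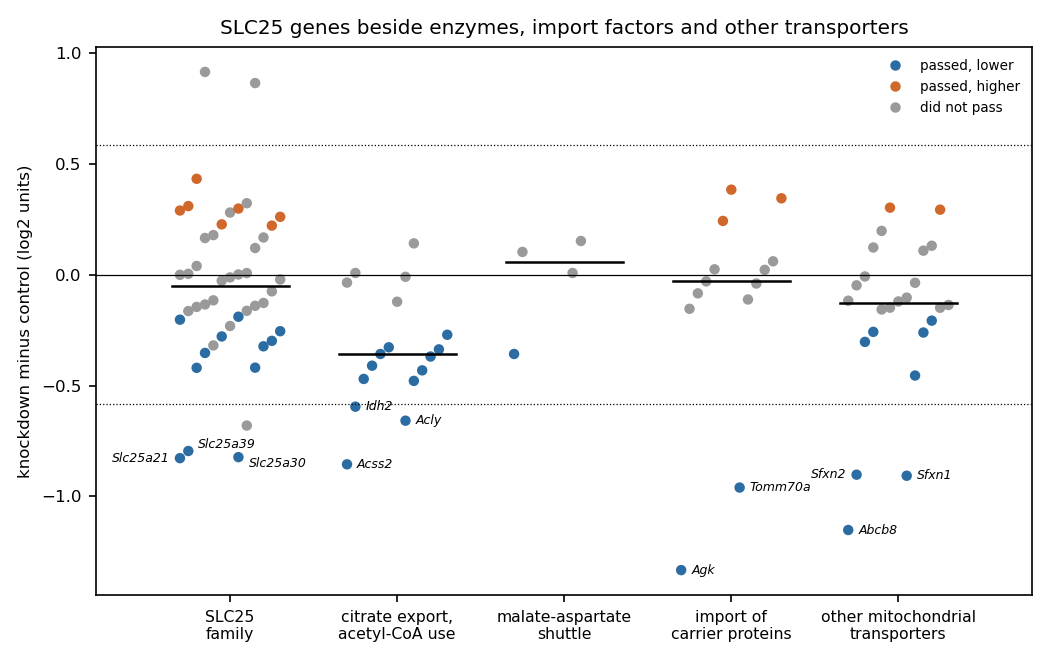
Change in normalized signal (knockdown minus control, log2 units) of SLC25 family genes and of 4 lists of related genes, where each point is a gene, the black bars are medians and the dotted lines mark a fold change of 1.5. Points of the citrate and acetyl-CoA list lie mostly below 0, with a median of -0.36, and the named genes are those called.

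Among carriers of adenine nucleotides and phosphate, 7 of 8 could be tested, 3 passed lower and 0 passed higher. The shares of all genes were 15.8% and 15.7%. Slc25a3, which brings phosphate into the matrix for ATP synthesis, read 5.46, 5.35 and 5.31 in control and 4.97, 5.004 and 4.89 in knockdown. Every knockdown array was below every control array, and the change was -0.42 (SE 0.062, adjusted p 0.00931). A second Slc25a3 probe changed by -0.24 with an adjusted p of 0.0151. The ATP-Mg/phosphate carrier Slc25a24 changed by nearly as much, from 2.18, 2.12 and 2.16 to 1.73, 1.73 and 1.74. Its knockdown arrays were closely grouped, and the change of -0.42 (SE 0.040, adjusted p 0.00250) passed in all 18 alternative settings. The other ATP-Mg/phosphate carriers measured well above background, Slc25a25 and Slc25a23, had changes of -0.012 (95% confidence interval -0.14 to 0.12) and -0.00014 (-0.20 to 0.20). Of the ADP/ATP carriers, Slc25a5 passed with -0.20 (adjusted p 0.0388) and Slc25a4 did not, with -0.14 (adjusted p 0.0628, 95% confidence interval -0.25 to -0.04). Slc25a5 passed in 7 of the 18 alternative settings. The spread of the 2 estimates overlapped, and a difference between these paralogs was not tested. Slc25a5 has the pseudogene copy Slc25a5-ps, and whether its probe also reads that copy was not tested.

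Iron, glutathione and glycine carriers serve heme, iron-sulfur cluster and redox chemistry in the matrix, and here closely related carriers passed in opposite directions. Mitoferrin 1, Slc25a37, read 1.37, 1.45 and 1.40 in control and 0.99, 1.002 and 1.16 in knockdown. Knockdown replicate 3 lay nearest to the controls without reaching them. Its change was -0.35 (SE 0.064, adjusted p 0.0167), and a second probe gave -0.39 (adjusted p 0.0281). Mitoferrin 2, Slc25a28, read 2.66, 2.70 and 2.63 in control and 2.99, 2.94 and 2.96 in knockdown, a change of 0.30 (SE 0.042, adjusted p 0.00789). All its knockdown arrays were above all its control arrays. Slc25a40, the nearest relative of Slc25a39, read -0.92, -0.95 and -0.86 in control and -0.69, -0.70 and -0.68 in knockdown, so it changed by 0.22 (SE 0.044, adjusted p 0.0229) where Slc25a39 had been called lower. Slc25a38, the glycine carrier needed for the first step of heme synthesis, went from 3.05, 3.05 and 3.09 to 3.51, 3.46 and 3.53. Its groups were well separated, and its change of 0.43 (SE 0.043, adjusted p 0.00291) was the largest upward change among members that passed. When arrays were scaled to their median, the changes of Slc25a28, Slc25a40 and Slc25a38 kept their sign but no longer passed, at 0.18, 0.11 and 0.32, while Slc25a37 and Slc25a39 stayed past the threshold at -0.47 and -0.91. Over all 18 settings Slc25a37 passed in 11, Slc25a28 in 15, Slc25a40 in 9 and Slc25a38 in 17. Slc25a37 did not pass with the replicate block or the slide row as a block, nor when any array other than knockdown replicate 3 was left out, and Slc25a28 did not pass with either block.

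Of the uncoupling proteins and their relatives, 5 of 6 were tested, with a median change of -0.25. Among them 3 passed lower and 0 passed higher, where 15.8% and 15.7% of all genes did. Besides Slc25a30, Ucp2, a proton and metabolite carrier of many tissues, read 2.14, 2.14 and 2.02 in control and 1.87, 1.74 and 1.72 in knockdown. Control replicate 3 lay lowest among the controls and still above all knockdown arrays. The change was -0.32 (SE 0.066, adjusted p 0.0250), and it passed in 12 of 18 alternative settings. Ucp3 was read from a probe that changed by -0.25 (adjusted p 0.0334) and passed in 9 of 18 alternative settings. Its other probe stayed near background on all arrays, so the level of this gene rests on 1 of 2 probes that differ. Ucp1, the uncoupling protein of brown fat, did not rise well above background in either group and was not tested. The brain-expressed relatives Slc25a27 and Slc25a14 changed by -0.14 (95% confidence interval -0.30 to 0.02) and 0.0044 (-0.12 to 0.13) and did not pass.

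Cofactor and nucleotide carriers moved by small amounts. Of the 8 carriers of acylcarnitine and cofactors, 2 passed higher and 1 passed lower, where 15.7% and 15.8% of all genes did. Slc25a51, which imports NAD+, read 2.59, 2.66 and 2.68 in control and 2.90, 2.88 and 2.93 in knockdown. The knockdown arrays were all above the controls, by 0.26 on average (SE 0.044, adjusted p 0.0140). A second probe of the gene changed by -0.11 with an adjusted p of 0.570, and the mean of both by 0.075 (adjusted p 0.553). Slc25a51 passed in 10 of 18 alternative settings. Slc25a32, a carrier of folate and FAD, changed by 0.29 (adjusted p 0.0304), and Slc25a26, which imports S-adenosylmethionine for methylation in the matrix, by -0.19 (adjusted p 0.0496). A second Slc25a26 probe changed by -0.12 with an adjusted p of 0.172. Slc25a32 passed in 9 of 18 alternative settings and Slc25a26 in 6. The carnitine-acylcarnitine carrier Slc25a20 and the coenzyme A carrier Slc25a42 changed by 0.17 and 0.18 with adjusted p of 0.116 and 0.131. Slc25a36, a carrier of pyrimidine nucleotides, changed by 0.31 (adjusted p 0.0422) and passed in 9 of 18 alternative settings. Its relative Slc25a33 changed by 0.17 on the brighter probe (adjusted p 0.0918) and by 0.23 on the other (adjusted p 0.0425).

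Amino acid carriers, 9 genes, had a median change of 0.0078, with Slc25a38 passing higher and Slc25a44 passing lower. Over all genes 15.7% passed higher and 15.8% passed lower. The median includes Slc25a2 and Slc25a13, which were not well above background on all 6 arrays. Slc25a44, a carrier of branched-chain amino acids, was inconsistent between its probes. The brighter probe changed by -0.28 (adjusted p 0.0469) and the other by 0.32 (adjusted p 0.0585), and the mean of both gave 0.021, so no direction is given for this gene. The aspartate-glutamate carrier Slc25a12 changed by -0.13 (adjusted p 0.105). The glutamate carrier Slc25a22 changed by 0.0078, with a 95% confidence interval of -0.089 to 0.10, and the ornithine carrier Slc25a15 by 0.04, with an interval of -0.07 to 0.15. These intervals lie within a fold change of 1.5 in either direction.

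The 10 genes of the outer membrane or of less settled substrate included 7 that were tested, none of which passed on the probe read for the gene. A dimmer Slc25a53 probe, well above background on 3 of 6 arrays, changed by 0.44 (adjusted p 0.0419), where the brighter one changed by -0.07. Slc25a45 changed by -0.23 and Slc25a47 by 0.28, with adjusted p of 0.0660 and 0.0835 by limma. Several carriers of other tissues were near or below the detection limit. Slc25a31, Slc25a48 and Slc25a54 gave no array with signal well above background and were not tested, like Ucp1. Slc25a2 and Slc25a34 passed the signal filter, but they too had no array with signal well above background, and no change is read from them. Slc25a13, Slc25a35 and Slc25a41 were well above background on some arrays, with 1, 3 and 0 control arrays and 0, 1 and 1 knockdown arrays. Their groups overlapped, none of the 3 passed, and no fold is given for them. In all, 9 members had more than 1 tested probe, and their probes changed in one direction in 5 and in both directions in 4.

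The carriers must be imported, and genes of that route were read from a list of 13 tested import factors. Agk, a subunit of the TIM22 complex that also works as a lipid kinase, was called lower, from 2.21, 2.14 and 2.17 to 0.81, 0.88 and 0.84. Its knockdown arrays lay far under the controls, and the change was -1.33 (SE 0.045, adjusted p 0.000323). Tomm70a, the receptor for carrier precursors, was called lower as well, from 3.17, 3.01 and 3.16 to 2.18, 2.07 and 2.22, a change of -0.96 (SE 0.070, adjusted p 0.00132). The channel subunit Timm22 changed by 0.025 (95% confidence interval -0.091 to 0.14) and did not pass. The small intermembrane-space chaperones Timm8a1 and Timm8b passed higher with 0.38 and 0.35, as did the TIM22 subunit Timm29 with 0.24. No import factor was called higher. When arrays were scaled to their median these 3 no longer passed, at 0.27, 0.23 and 0.13. Timm29 also did not pass with the replicate block or without control replicate 2. Of the 13 factors, 2 were called lower, 2 passed lower and 3 passed higher. The shares of all genes were 5.00%, 15.8% and 15.7%. The median of the 13 was -0.03.

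Other mitochondrial transporters, 24 genes not taken as members by their symbol, had 3 called lower, 8 that passed lower and 2 that passed higher. The shares of all genes were 5.00%, 15.8% and 15.7%. The median change of the 24 genes was -0.13. The sideroflexin Sfxn1, which carries serine into mitochondria, read 3.52, 3.53 and 3.56 in control and 2.65, 2.61 and 2.62 in knockdown, a change of -0.91 (SE 0.040, adjusted p 0.000437). Its relative Sfxn2 changed by -0.90, and Abcb8, an inner-membrane ABC transporter, by -1.15. For these 3 genes the knockdown arrays were all below the control arrays, and a second probe of each was called lower too. Mcub, a subunit of the calcium uniporter, changed by -0.45 and passed without a call. Sfxn5 and Micu2 passed higher with 0.30 and 0.29. When arrays were scaled to their median neither passed, at 0.19 and 0.18. A dimmer Sfxn5 probe changed by 0.74 (adjusted p 0.222), and the mean of both probes by 0.52 (adjusted p 0.123).

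**Figure D5:**
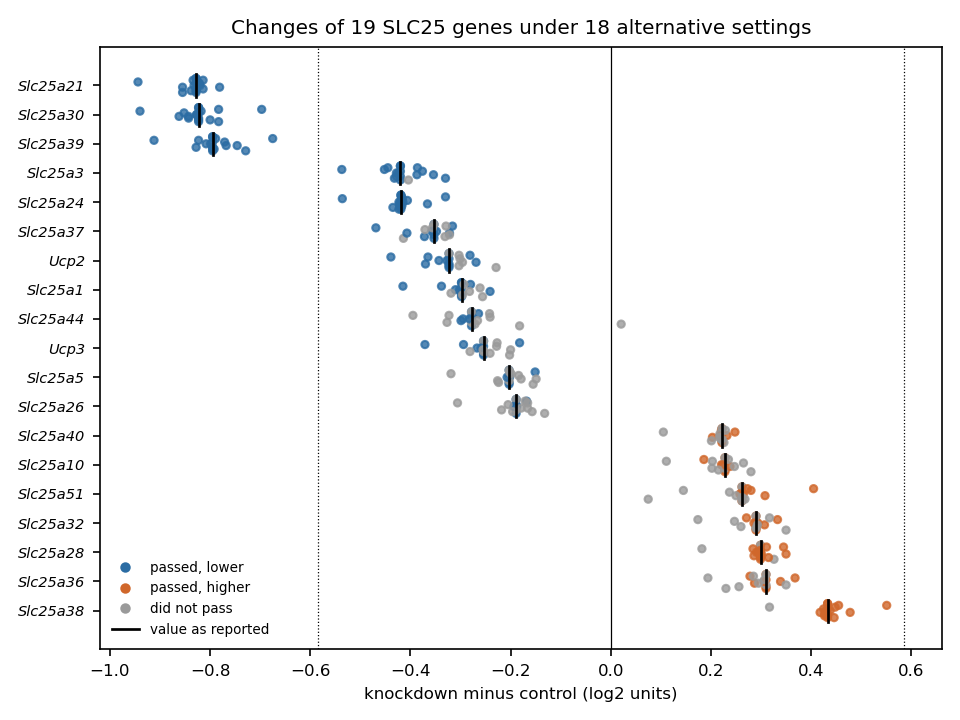
Change (knockdown minus control, log2 units) of the 19 SLC25 family genes that passed, under 18 alternative settings (points, coloured by whether the gene passed under that setting) and as reported (black bars), with dotted lines at a fold change of 1.5. Slc25a21, Slc25a30 and Slc25a39 stay beyond the line in all settings, and Slc25a44 lies on the other side of 0 when its probes are averaged.

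The arrays lay on 1 slide in 2 rows, with all control arrays and knockdown replicate 1 in one row and knockdown replicates 2 and 3 in the other. Within the row that held both groups, and equally with the row as a block, the change rests on knockdown replicate 1. There it was -0.86 for Slc25a21, -0.73 for Slc25a39, -0.78 for Slc25a30 and -0.26 for Slc25a1. The knockdown arm is then a single array that is assumed to vary like the others, so these values are given for their size and sign and not as a further test. With the row as a block 4 members passed lower and 1 passed higher, when 6.06% and 5.47% of all genes did.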

How the data were processed

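RNA of control and knockdown N2a cells was hybridised to 6 one-colour Agilent mouse arrays, 3 per group. Sample titles gave the group and replicate number of each array. The authors ran Feature Extraction 10.10.1.1, and the deposited intensity of each spot is its processed, background-corrected signal. The deposited series matrix holds log2 values whose scale and centring are not stated. Over 43742 single-spot probes, its differences between arrays matched those computed here with a median gap of 0.0025, and it served as an alternative.

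Control and outlier-flagged spots were left out, log2 signal was reduced by the 75th percentile of its array, and spots of a probe were averaged. The 75th percentile lay between 718 and 754 intensity units, 61.9% to 66.2% of spots were well above background, and the number of arrays limits the precision. Probes at or above the 20th percentile on all 3 arrays of a group were kept, which left 42126 probes. Accessions were paired with symbols through the RefSeq table of GRCm38.p6, and a gene was read from its tested probe of highest mean signal. Knockdown was tested against control in R 4.3.3 by limma 3.58.1, using lmFit and eBayes without covariates (two-sided), and p-values were adjusted by the Benjamini-Hochberg method across the 42126 probes. The scripts were tested on simulated data.

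The genes named are Slc25a1, every called member, the 6 uncalled members of smallest adjusted p, Ucp2, Slc25a3, Slc25a4, Slc25a5, and per companion list each called gene and the 3 others of smallest adjusted p. Further members were named after their values were seen. Members and lists were chosen with earlier results of these data known. Alternatives were other background corrections, scalings, filters, fold thresholds, probe averaging, variance trend, array weights, slide row, replicate block and each array left out. Normexp used the median spot and background signals. Protein sequences were not analysed here.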

Additional observations from a re-analysis of the deposited data

How the results depend on the processing

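Among 18 alternative settings, Slc25a21, Slc25a39, Slc25a30 and Slc25a24 were the 4 of 19 passing members that passed in all of them. Median scaling moved the median of all genes to -0.11 and that of the family to -0.17, which is -0.056 relative to all genes. Under it 0 members passed higher, where 5.2% of all genes did, against 15.7% in the main fit. Called lower were 5 genes of the citrate and acetyl-CoA list, against 1 with normexp and quantile normalization. The shares of all genes called lower were 7.13% and 3.38%. Without the filter on low signal 3 members passed higher. Averaging a gene's probes gave a family median of -0.012 and turned Slc25a44 to 0.021. With the slide row as a block, 4 members passed lower and 1 passed higher, the family median was -0.0036, and Slc25a1 changed by -0.26 without passing. With the replicate block, 6 members passed lower and 1 passed higher, where 9.72% and 8.05% of all genes did, and the 3 calls held. Deviations of arrays of one replicate number correlated at 0.0025 to 0.067, so the numbers were not taken to pair the samples. Without a minimum fold, 12 members were called lower and 7 higher, and at a fold above 2 there were 0 called lower. When 1 array was left out, 3 to 4 members were called lower and 0 to 1 called higher. The shares of all genes were 4.5% to 4.97% and 3.29% to 3.68%. In these fits 5 to 9 members passed lower and 2 to 7 passed higher. Over all genes 10% to 12.2% and 9.21% to 11.5% did. Slc25a1 changed by -0.34 to -0.26 in them. The extra calls were Slc25a13 (-0.75, without control replicate 3) and Slc25a2 (0.64 and 1.12, without control replicate 1 or 3), neither well above background throughout. CCAAT lay before 18 members and, with 50 bases after the start included, in 19. The cause of these shifts was not tested. All arrays carried 1 scan date, so scan date could not be fitted as a block. Genes not well above background, such as Slc25a2 and Ucp1, cannot be compared at this signal.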
